A study of Homo sapiens with 10 samples.

Results

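Kinesins are motor proteins that use ATP to move along or take apart microtubules, and the genes described here are the 42 whose symbols carry the KIF family name with a number or a C and a number, out of 22003 features in the count table. They were divided by known role into 14 mitotic kinesins, 15 transport kinesins and 13 of other or mixed role. RNA was sequenced from HaCaT, a human keratinocyte line that became immortal without a transgene and whose tissue the labels give as mucosa. Cells were grown with LBP, a polysaccharide-glycoprotein preparation of the goji plant Lycium barbarum, or with vehicle for 24 h, then received 12 Gy of ionising radiation or none, and RNA was taken 3 h after exposure. The groups were vehicle without radiation (n = 2), LBP without radiation (n = 2), vehicle with 12 Gy (irradiated vehicle, n = 3) and LBP with 12 Gy (irradiated LBP, n = 3). All cells were labelled wild type and all belonged to 1 cell line. Whether libraries of a group stem from separate cultures is not said in the labels, and the p-values rest on a spread among samples that could be technical alone.

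Depth ran from 31830506 to 62986831 counts per library. All 12 keratinocyte markers reached 1 CPM (counts relative to the library total, scaled between libraries), with a summed level of 13294 to 16955 CPM over the libraries. Simple and mucosal epithelial markers summed to 5136 to 6873 CPM, and 7 of the 10 reached a mean of 1 CPM. Most of that sum came from the keratins KRT8, KRT18 and KRT19, with means of 3338, 1500 and 1209 CPM. KRT13 had 78.4 and MUC1 10.2 CPM. The rest were low, with KRT4 at 3.14, MUC4 at 1.68, KRT20 at 0.195, MUC5AC at 0.0045 and TFF3 at 0 CPM. Fibroblast markers summed to at most 7.30, endothelial markers to 3.61, melanocyte markers to 1.28 and leukocyte markers to 19.8 CPM. Neuron markers, which matter here because several transport kinesins are best known from neurons, summed to 73.0 to 84.1 CPM. Most of this came from NEFL and MAP2, with means of 35.4 and 33.0 CPM. SYN1 had 7.18 and SYT1 2.07 CPM, while NEFM, SNAP25 and RBFOX3 had 0.138, 0.018 and 0.016 CPM. After filtering on low counts 35 of the 42 kinesins were tested among 14799 features, namely 13 mitotic, 12 transport and 10 of other role.

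Mitotic kinesins build and use the spindle: some slide microtubules apart, some walk chromosomes to the spindle equator or shorten microtubule ends there, and some organise the central spindle through which the cell divides. Their transcripts accumulate in G2 and mitosis in dividing cells. Transport kinesins carry vesicles, mitochondria and other cargo along microtubules at all stages of the cell cycle, in keratinocytes as in other cells. Many genes of G2 and mitosis carry a short promoter element near the transcription start, the cell cycle genes homology region, which is bound by the LIN54 subunit of the DREAM and MuvB complexes, and often a CCAAT box upstream that is bound by NF-Y.

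The promoters of both classes are shown first because they differ in that element. RefSeq windows on GRCh38.p14, from 250 bases before to 50 after each annotated start, existed for 34 of the 42 genes and were searched on both strands for TTTGAA or TTCGAA and for CCAAT. The motifs can share an end letter but do not in the stretches printed. An element within 60 bases of the start was found in 11 of 14 mitotic kinesins, in 0 of the 11 transport kinesins with a window and in 1 of the 9 other kinesins with a window, KIF24. Of all 35116 RefSeq windows, 5.44% held it that close. Counted by gene, as for the kinesins, it was 6.75% of 27305 genes. Anywhere in the window the element occurred in 16.4% of all windows and CCAAT in 34.6%. Both were held by 10 of the 14 mitotic kinesins, by 7.85% of all genes and by 6.38% of all windows. These are matches of letters in a window, not measured binding. The motifs were chosen after the tests, and the classes were drawn up with earlier results of these data known. KIF5A, KIF13B, KIFC2, KIFC3, KIF19, KIF21B, KIF26B and KIF27 had no window in the table. The 6 windows below are mitotic kinesins with the element, printed from 110 bases before to 20 after the start, 5′ to 3′ on the gene's strand, with the element and the CCAAT box in capitals (TTCAAA and ATTGG are the same motifs read on the other strand). They lie at KIF18A at chr11:28108137-28108266 (minus strand), KIF18B at chr17:44947754-44947883 (minus strand), KIF23 at chr15:69414239-69414368 (plus strand), KIFC1 at chr6:33391713-33391842 (plus strand), KIF4A at chrX:70289994-70290123 (plus strand) and KIF22 at chr16:29790641-29790770 (plus strand).
KIF18A: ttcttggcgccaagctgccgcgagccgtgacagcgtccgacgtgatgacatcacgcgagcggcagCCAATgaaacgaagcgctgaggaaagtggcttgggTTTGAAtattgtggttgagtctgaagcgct
KIF18B: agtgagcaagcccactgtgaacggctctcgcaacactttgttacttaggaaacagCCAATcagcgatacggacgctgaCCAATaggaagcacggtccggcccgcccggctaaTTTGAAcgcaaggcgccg
KIF23: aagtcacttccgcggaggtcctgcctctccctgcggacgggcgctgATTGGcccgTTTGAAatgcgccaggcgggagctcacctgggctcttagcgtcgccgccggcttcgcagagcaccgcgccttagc
KIFC1: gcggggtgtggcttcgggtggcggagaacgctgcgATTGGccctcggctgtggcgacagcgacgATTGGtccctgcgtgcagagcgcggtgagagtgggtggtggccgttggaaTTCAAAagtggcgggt
KIF4A: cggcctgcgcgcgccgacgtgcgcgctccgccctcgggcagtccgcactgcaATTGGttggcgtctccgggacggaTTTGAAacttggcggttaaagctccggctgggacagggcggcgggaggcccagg
KIF22: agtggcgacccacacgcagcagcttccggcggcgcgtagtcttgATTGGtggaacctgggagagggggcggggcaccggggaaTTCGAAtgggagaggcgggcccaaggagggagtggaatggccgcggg

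KIF20A and KIF2C are mitotic kinesins in which neither TTTGAA nor TTCGAA was found. The search did not cover other letters, such as the TTTAAA in the windows of both. Both genes are printed in the same way because they belong with those that fell after irradiation, as described later. They lie at KIF20A at chr5:138179002-138179131 (plus strand) and KIF2C at chr1:44739727-44739856 (plus strand), and KIF20A holds a pair of CCAAT boxes while KIF2C holds neither motif.
KIF20A: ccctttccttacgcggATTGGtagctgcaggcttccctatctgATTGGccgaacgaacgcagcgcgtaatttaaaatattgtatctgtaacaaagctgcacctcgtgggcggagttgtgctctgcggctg
KIF2C: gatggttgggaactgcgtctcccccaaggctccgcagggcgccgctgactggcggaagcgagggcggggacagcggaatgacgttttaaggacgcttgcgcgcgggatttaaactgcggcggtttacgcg

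For contrast, the windows of the 3 transport kinesins with the highest read counts hold no element near the start. KIF5B has one, on its own strand, 140 bases before the start, outside the stretch printed. They lie at KIF1C at chr17:4997840-4997969 (plus strand), KIF5B at chr10:32056406-32056535 (minus strand) and KIF3B at chr20:32277541-32277670 (plus strand), and their capitals mark CCAAT boxes, of which KIF1C has none.
KIF1C: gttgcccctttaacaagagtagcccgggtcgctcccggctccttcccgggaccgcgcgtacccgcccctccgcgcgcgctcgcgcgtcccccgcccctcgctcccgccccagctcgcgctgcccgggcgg
KIF5B: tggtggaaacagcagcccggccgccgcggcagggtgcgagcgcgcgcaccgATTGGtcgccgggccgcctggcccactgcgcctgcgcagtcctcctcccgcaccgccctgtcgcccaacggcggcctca
KIF3B: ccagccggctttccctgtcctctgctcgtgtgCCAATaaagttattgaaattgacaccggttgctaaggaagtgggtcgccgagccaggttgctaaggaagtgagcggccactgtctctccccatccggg

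**Figure D1:**
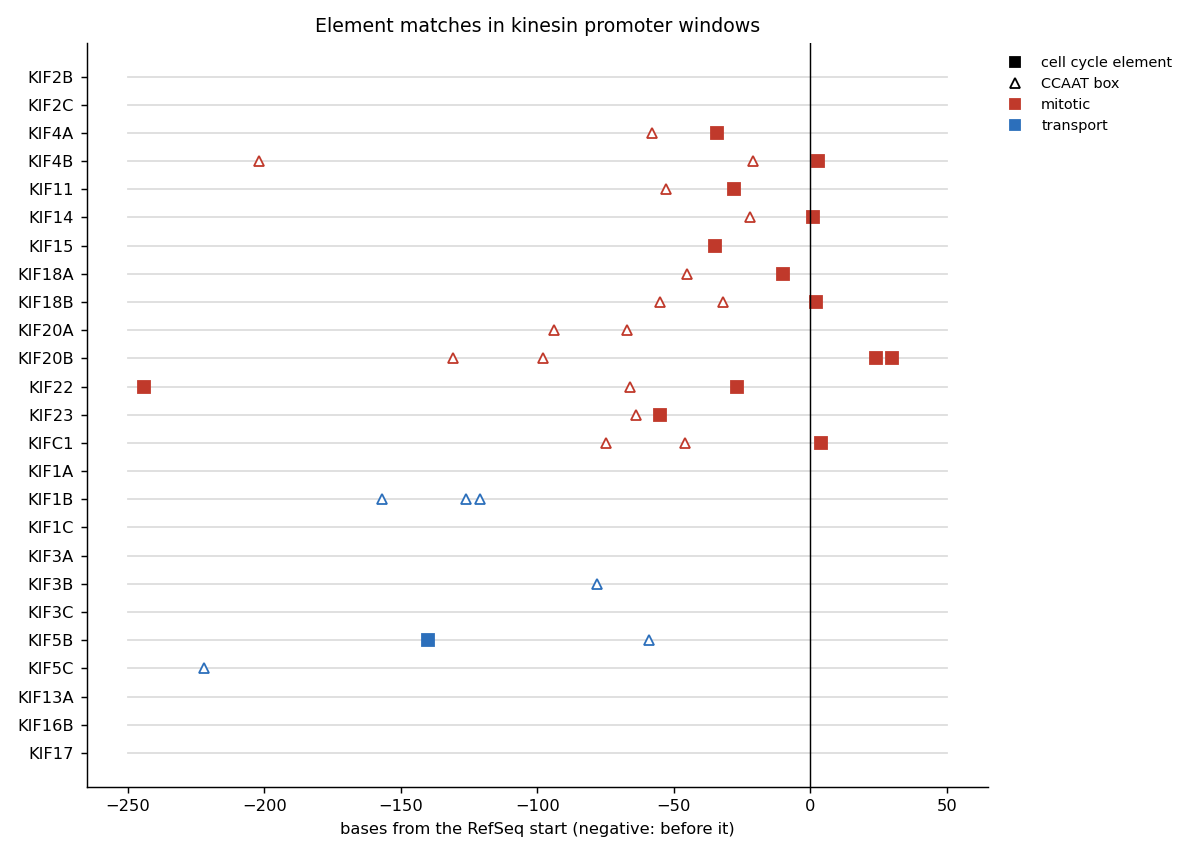
Positions of the cell cycle element (filled squares) and of CCAAT boxes (open triangles) in bases from the RefSeq start, for mitotic (red) and transport (blue) kinesins with a window, each grey line spanning 250 bases before to 50 after. Where a gene has several windows, matches from all of them are drawn on 1 line. Squares lie within 60 bases of the start in 11 mitotic kinesins and in 0 transport kinesins.

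Per transcript length, mitotic kinesins were the most abundant class in unirradiated vehicle cells, with a median of 23.2 FPKM (fragments scaled by transcript length and library size, as deposited) over 13 genes, against 6.32 over 12 transport kinesins and 0.42 over 10 others. KIF23, a motor of the central spindle, stood highest at 67.9 ± 0.73 FPKM (SD, n = 2), followed by KIF22, a chromosome-bound motor, at 51.0 ± 2.4, and KIF20A, which brings the chromosomal passenger complex to the midzone, at 48.3 ± 0.36. KIF1C, a carrier of vesicles and mRNA, came next at 41.2 ± 2.6 FPKM as the highest transport kinesin, and KIF5B, the ubiquitous conventional kinesin heavy chain, was seventh at 28.96 ± 0.91. Neighbours in this order whose 2 vehicle libraries overlapped included KIFC1 and KIF2C (37.1 and 36.2 FPKM), KIF4A and KIF3B (23.2 and 21.7), KIF3B and KIFC3 (21.7 and 20.9), and KIF18B and KIF20B (10.4 and 10.2). The neuronal kinesins KIF1A, KIF5A and KIF17 had at most 12 counts in any library and were not tested, and the same held for KIF12, KIF19 and KIF25 with at most 14. KIF2B, a microtubule depolymerase related to KIF2C, had 0 counts in all 10 libraries, so that its level could be as high as 0.0478 to 0.0925 CPM depending on the library (limit of 3 counts, counting error only).

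The comparison of irradiated with unirradiated vehicle cells asked what 12 Gy did to these genes within 3 h. Of the 13 tested mitotic kinesins 7 fell, KIF18A, KIF20A, KIF18B, KIFC1, KIF23, KIF2C and KIF4A, and 0 rose, by edgeR's quasi-likelihood test with Benjamini-Hochberg adjustment over all features. Among all tested features 0.439% were called in either direction and 0.405% were called lower. All 13 had negative values, with a median log2 fold change of -0.60 against 0.0019 over all tested features. In all 13, every irradiated library lay below both vehicle libraries, a separation found in 13.9% of all features. None of the 12 transport kinesins was called and their values divided into 6 negative and 6 positive, with a median of -0.00064. In RNA from whole cultures, fewer cells in G2 or mitosis and less of these transcripts per cell cannot be told apart.

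**Figure D2:**
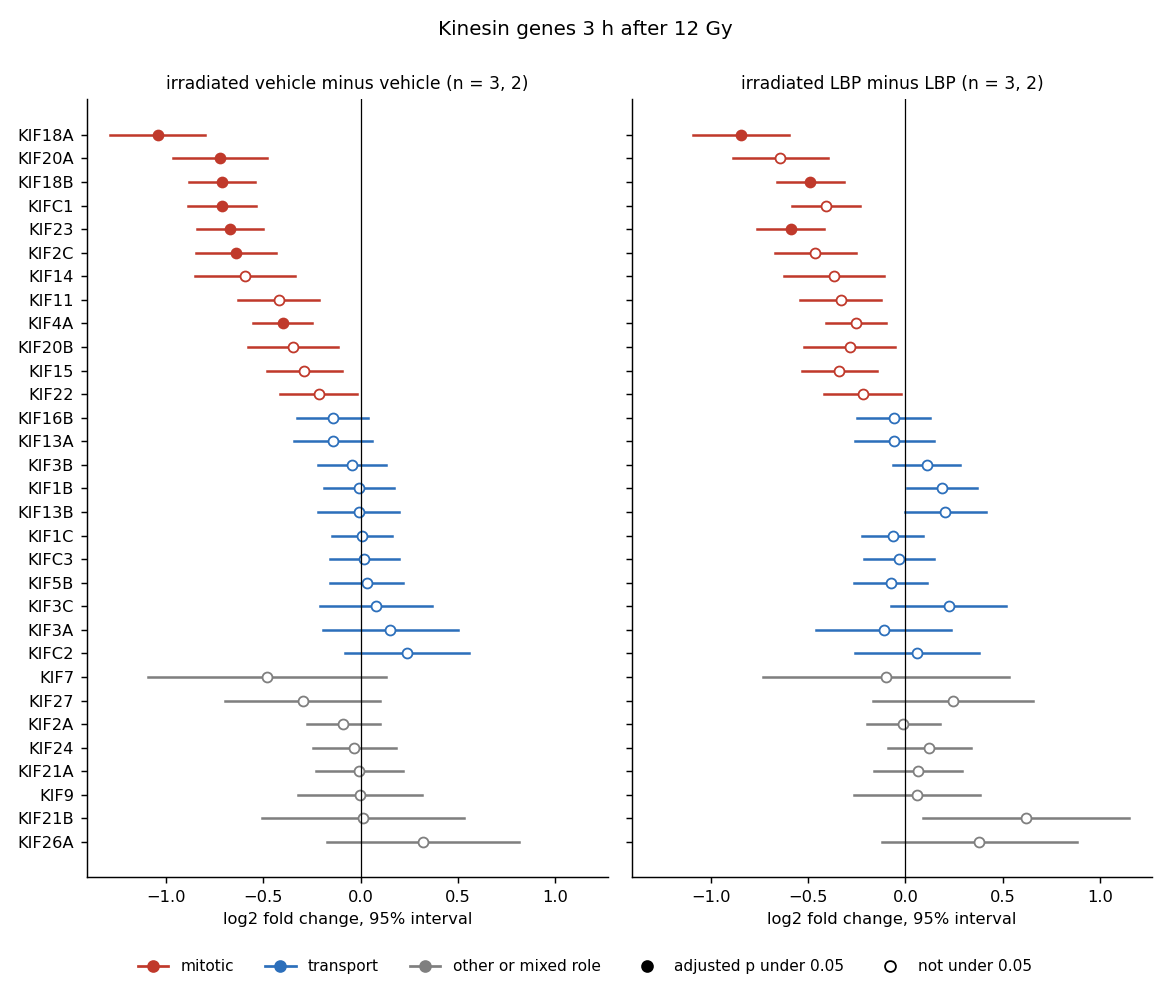
Log2 fold changes with 95% intervals after 12 Gy for the 31 tested kinesins with a mean of at least 1 CPM, without LBP (left) and after LBP (right). Filled points have an adjusted p under 0.05. Mitotic kinesins (red) lie left of 0 in both panels, and transport kinesins (blue) lie on both sides of it.

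Motors that act on chromosomes and microtubule ends are described first. KIF18A, which dampens chromosome movements at the spindle equator, had the lowest value of the 35 kinesins and stood at 44.0 and 50.6 CPM in the vehicle libraries and at 24.98, 24.9 and 19.2 in the irradiated ones, with no overlap. It fell by 1.04 ± 0.11 on the log2 scale (SE, adjusted p = 0.00094), to 0.49 of its level. KIF18B, which shortens astral microtubules, went from 51.5 and 46.8 to 30.9, 29.7 and 29.2 CPM, a change of -0.71 ± 0.08 (adjusted p = 0.00094). The 3 irradiated libraries of KIF18B lay closer together than those of KIF18A. KIF2C, the depolymerase that corrects faulty kinetochore attachments, fell from 113 and 118 to 70.1, 73.9 and 78.4 CPM, a change of -0.64 ± 0.10 (adjusted p = 0.0099). KIF4A, a chromosome-arm motor that also sets the length of the central spindle, stood at 118 and 114 CPM against 92.9, 83.8 and 86.3, and fell by 0.40 ± 0.07 (adjusted p = 0.026), the smallest change among the 7. KIF22, another motor bound to chromosome arms, had 115 and 123 CPM against 104, 94.99 and 109. Its value was -0.22 ± 0.09 (adjusted p = 0.69), nearest to 0 of the 13.

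Among the motors that set up spindle poles, KIFC1, a minus-end motor that clusters poles, fell from 99.9 and 98.3 to 59.5, 59.1 and 62.7 CPM, a change of -0.71 ± 0.08 (adjusted p = 0.0011). Its groups did not overlap. KIF11, the motor that pushes poles apart, had 142 and 149 CPM against 109, 113 and 104, without overlap but with an adjusted p of 0.14 (-0.42 ± 0.10). KIF15, which assists KIF11, had 28.5 and 28.4 CPM against 25.2, 23.2 and 21.5 (-0.29 ± 0.09, adjusted p = 0.46). Neither KIF11 nor KIF15 passed the threshold, although their intervals, -0.63 to -0.21 and -0.48 to -0.10, lay below 0.

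Of the kinesins of the central spindle and cytokinesis, KIF20A fell from 170 and 169 to 102, 97.4 and 107 CPM, a change of -0.72 ± 0.11 (adjusted p = 0.012). KIF23 fell from 270 and 265 to 166, 176 and 162 CPM, a change of -0.67 ± 0.08 (adjusted p = 0.0013). The lowest vehicle library stood well above the highest irradiated library in both genes. KIF14, which recruits citron kinase to the midbody, had 67.2 and 63.8 CPM against 42.9, 45.7 and 41.2. Its value of -0.60 ± 0.12 was near that of KIF2C, but the adjusted p was 0.056 and it was not called. KIF20B, needed for the last steps of abscission, had 74.0 and 72.6 CPM against 61.4, 64.0 and 47.8 (-0.35 ± 0.11, adjusted p = 0.47), with irradiated library 3 apart from the other two. KIF4B, a single-exon close copy of KIF4A, was measured at only 0.50 and 0.478 against 0.442, 0.402 and 0.349 CPM (-0.30 ± 0.38), and how reads were divided between the copies is uncertain.

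CENPE, a kinetochore kinesin whose symbol lies outside the family naming, had 60.7 and 62.1 CPM in vehicle and 34.3, 38.4 and 21.1 CPM in irradiated vehicle cells. It fell by 0.98 ± 0.18 (adjusted p = 0.036), a fold close to that of KIF18A, with irradiated library 3 again the lowest. Neither TTTGAA nor TTCGAA was found in its promoter window. STARD9, the other tested kinesin outside the naming, went the other way. It had 1.37 and 1.10 CPM in vehicle and 1.55, 1.46 and 1.47 CPM in irradiated vehicle cells. Its value was 0.28, with no overlap between groups, and it was not called.

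**Figure D3:**
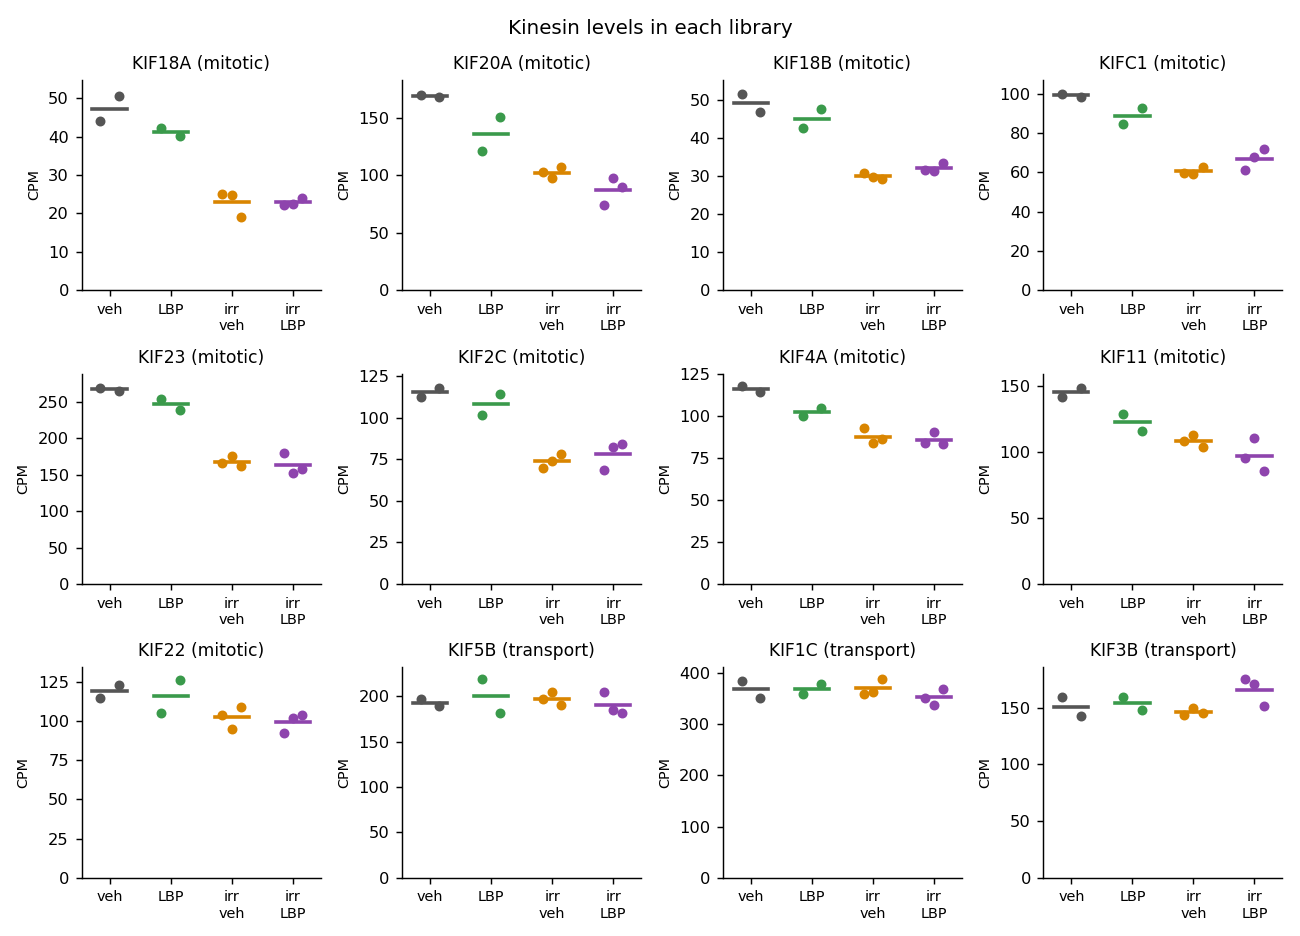
CPM of 9 mitotic and 3 transport kinesins in each library (points) with the group mean (bars), for vehicle (veh), LBP, irradiated vehicle (irr veh) and irradiated LBP (irr LBP). KIF18A lies between 44.0 and 50.6 CPM in vehicle and between 19.2 and 24.98 CPM in irradiated vehicle libraries, while KIF5B stays between 181 and 219 CPM in all 10 libraries.

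Transport kinesins gave intervals that bound how far they can have moved. KIF1C had 385 and 352 CPM in vehicle against 358, 363 and 389 CPM in irradiated vehicle libraries, with a value of 0.01 ± 0.07 and an interval from -0.15 to 0.16. KIF5B had 197 and 189 CPM against 197, 205 and 190 (0.03 ± 0.09), and KIF3B, a subunit of the heterotrimeric kinesin-2, had 159 and 143 against 143, 150 and 145 (-0.04 ± 0.08). The groups overlapped in all 3 genes. The other named members were KIF3A and KIF3C of kinesin-2, the vesicle and organelle carriers KIF1B, KIF13A, KIF13B and KIF16B, and the minus-end motors KIFC2 and KIFC3. Over the 11 transport kinesins with a mean of at least 5 CPM, values ran from -0.14 for KIF16B to 0.24 for KIFC2, and the intervals together from -0.34 for KIF13A to 0.56 for KIFC2. None of the 12 reached an unadjusted p under 0.05, against 1022 of 14799 features and 12 of 13 mitotic kinesins. KIFC2 shares 791 exonic bases, 17.8% of its own, with FOXH1 on the other strand in GENCODE v29, and whether counting used strand is not given in the sources used here. Kinesins of other role include the ciliary and Hedgehog pathway motor KIF7 and the microtubule-end regulators KIF2A and KIF21A. They also gave 0 calls of 10 and 0 unadjusted p under 0.05, with a median of -0.06. KIF2A, which could also be counted as mitotic, had 78.7 and 80.1 CPM against 77.0, 77.9 and 69.2. Its value of -0.09 was a smaller change than that of KIF22 (-0.22).

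Genes that work with each class were counted next. Of 25 partners and regulators of mitotic kinesins 15 fell and 0 rose, with a median of -0.52, where 0.405% of all tested features were called lower. This list too was drawn up with earlier results of these data known. AURKA, the kinase of spindle poles, fell by 1.24 ± 0.09 (adjusted p = 0.00016), FAM83D, which brings CK1 kinase to the spindle, by 1.03 ± 0.09 (adjusted p = 0.00036), CDCA8, the borealin subunit of the passenger complex, by 0.83 ± 0.08 (adjusted p = 0.00060) and CDCA2, which brings phosphatase to chromosomes, by 0.82 ± 0.09 (adjusted p = 0.00094). Of 20 light chains and cargo adaptors of transport kinesins, 17 dynein and dynactin subunits and 13 tubulins, 0 passed in either direction and 1 in each list had an unadjusted p under 0.05, with medians of -0.02, -0.04 and -0.05. The 16 DNA replication genes gave 0 calls and 3 unadjusted p under 0.05 (median -0.0048). The 16 regulators of G2 and mitosis genes, which include FOXM1, MYBL2, LIN54 and E2F4, gave 0 calls and 2 unadjusted p under 0.05 (median 0.06) as transcripts.

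Within the mitotic class the promoter element, searched only as TTTGAA or TTCGAA, did not sort the genes that fell from those that did not pass. It was found in 5 of the 7 that fell, all but KIF20A and KIF2C, and in 6 of the 6 tested members that were not called. In the whole table, 49 features called lower had a promoter window, and 25 of these held the element within 60 bases of the start, 5 of them kinesins, against 5.16% of the 10709 tested features with a window. Most of the 553 tested features with the element were not called, and their median was -0.04 against 0.0012 in the 10156 without it. The element was near the start in 16 of 19 mitotic partners with a window and in 0 of 13 replication genes. It was there in 0 of 14 cargo adaptors and in 1 of 16 dynein and dynactin genes. As the motifs were chosen after the tests, these shares are descriptions only.

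The genes that fell are protein coding and lie, in GENCODE v29 on GRCh38, at chr11:28020620-28108308 (KIF18A), chr17:44924709-44947711 (KIF18B), chr5:138178719-138187715 (KIF20A), chr15:69414246-69448427 (KIF23), chr1:44739818-44767767 (KIF2C), chrX:70290090-70420832 (KIF4A) and chr6:33391536-33409924 (KIFC1). Some share exonic bases with a gene on the other strand whose reads may not be told apart: KIF18A shares 61 with METTL15, KIF20A 132 with BRD8 and 68 with CDC23, KIF4A 77 with PDZD11, KIFC1 424 with the pseudogene RPL12P1, and KIF23 and KIF2C 231 and 175 with an antisense gene each.

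Over 18 alternative settings KIF18A, KIF18B, KIF23 and KIFC1 were called in all 18, KIF20A and KIF2C in 13 and KIF4A in 9, and transport kinesins in 0. The count of 7 dropped to 4 without vehicle replicate 1, vehicle replicate 2, irradiated vehicle replicate 1 or irradiated vehicle replicate 2, and to 6 without irradiated vehicle replicate 3. DESeq2 called 9, adding KIF11 (adjusted p = 0.0075) and KIF14 (adjusted p = 0.00032), while the call of CENPE was lost in 10 settings. The median for features within the length range of the mitotic kinesins was -0.0048, close to that of all features.

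Irradiation after LBP pretreatment, the same question in cells given LBP, was measured in other libraries (n = 3 against 2). Of 13 mitotic kinesins 3 fell, KIF18A, KIF23 and KIF18B, and 0 rose, where 0.142% of all features were called and 0.128% called lower. All 13 again had negative values, with a median of -0.38 against 0.0021 over all features, and in 11 of them every irradiated library lay below both others, against 14.0% of all features. KIF18A had 42.3 and 40.0 CPM in LBP cells against 22.2, 22.5 and 24.0 after irradiation, and fell by 0.85 ± 0.11 (adjusted p = 0.0083). KIF23 had 254 and 239 CPM against 181, 153 and 158, and fell by 0.59 ± 0.08 (adjusted p = 0.0083). KIF18B had 42.6 and 47.5 CPM against 31.6, 31.3 and 33.4, and fell by 0.49 ± 0.08 (adjusted p = 0.036). These 3 were also among the 7 that fell without LBP. Epithelial markers also differed between these groups: keratinocyte markers summed to 16625 to 16955 CPM in LBP and 15088 to 16090 CPM in irradiated LBP libraries, and simple and mucosal markers to 5860 to 6810 and 5136 to 5819 CPM. Their part in the kinesin values was not tested.

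The other 4 of those 7 did not pass after LBP, although DESeq2, run as an alternative, called KIF20A, KIFC1 and KIF2C. KIF20A had 122 and 151 CPM against 74.5, 97.8 and 89.7, with a value of -0.64 ± 0.11 just outside the threshold (adjusted p = 0.054). KIFC1 had 84.5 and 92.7 CPM against 60.9, 67.8 and 71.9 (-0.41 ± 0.08, adjusted p = 0.096), KIF2C had 102 and 115 against 68.5, 82.5 and 84.5 (-0.46 ± 0.10, adjusted p = 0.12) and KIF4A had 100 and 104 against 84.0, 90.3 and 83.1 (-0.25 ± 0.07, adjusted p = 0.24). In each of the 4 genes the groups were apart. The remaining well measured members gave -0.37 for KIF14, -0.34 for KIF15, -0.33 for KIF11, -0.29 for KIF20B and -0.22 for KIF22, all with intervals below 0. The count was 0 without LBP replicate 1 and 0 without LBP replicate 2, and ran from 0 to 6 over 18 alternative settings. KIF18A was called in 15 of 18 settings, KIF23 in 14 and KIF18B in 4.

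No transport kinesin was called after irradiation in LBP cells, in the main test or in any of the 18 settings, and the median of the 12 was -0.04. Only KIF1B had an unadjusted p under 0.05, at 82.2 and 74.1 CPM against 91.0, 92.1 and 84.3 (0.19 ± 0.08, adjusted p = 0.35). Of the other kinesins KIF21B, a microtubule-end regulator, had the highest value, 0.62 ± 0.24, at 2.54 and 2.83 CPM against 3.22, 3.61 and 5.55 (adjusted p = 0.31). CENPE had 55.1 and 50.7 CPM against 30.1, 30.6 and 33.7 and was not called (-0.75 ± 0.18, adjusted p = 0.19). STARD9 stood at 0.23 and was not called either. Of the 25 mitotic partners 5 fell, where 0.128% of all tested features were called lower. They were AURKA, FAM83D, CCNB1, CDCA2 and CDCA8, with falls from 1.10 ± 0.09 for AURKA to 0.60 ± 0.08 for CDCA8. The promoter element was near the start in 8 of the 13 features called lower that had a window, and 5 of these 8 were not kinesins. Among the 10709 tested features with a window 5.16% held it there.

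Whether the response to 12 Gy differed with LBP was tested as an interaction, the change after LBP minus the change without it. Of 35 kinesins 0 were called, with 0.0135% of all features called, and 1 had an unadjusted p under 0.05. DESeq2 also called 0. The 1 was KIFC1, with 0.31 ± 0.11 (interval 0.06 to 0.56, adjusted p = 0.60). Of the 13 mitotic kinesins 10 had positive and 3 negative values, where 7527 of 14799 features were positive. Their median was 0.09 against 0.0054 over all features. Over the 12 mitotic kinesins with at least 5 CPM the intervals ran from -0.32 for KIF15 to 0.60 for KIF14, so differences of that size cannot be set aside at this depth and number of libraries. The smaller count of calls after LBP is therefore not shown to be a smaller response.

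LBP without irradiation was compared with vehicle (n = 2 against 2), which shares the vehicle libraries with the irradiation comparison. Of the 35 kinesins 0 were called, where 0.804% of all features were, and 7 had an unadjusted p under 0.05, against 2003 of 14799 features. DESeq2 also called 0. Keratinocyte markers differed between the same groups, with sums of 13871 to 14576 CPM in vehicle and 16625 to 16955 CPM in LBP libraries, and their part in these values was not tested. Of the 13 mitotic kinesins 11 had negative values, with a median of -0.16 against 0.010 over all features, and 8 had both LBP libraries below both vehicle libraries, which held for 22.3% of all features. KIF20A had 170 and 169 CPM in vehicle against 122 and 151 with LBP (-0.31 ± 0.12, adjusted p = 0.30), and KIF20B had 74.0 and 72.6 against 61.1 and 57.2 (-0.31 ± 0.12, adjusted p = 0.28). The LBP libraries of KIF20A differed from each other by more than those of KIF20B. KIF1B, a carrier of mitochondria and synaptic vesicle precursors, had the smallest p of the transport class, at 103 and 87.8 against 82.2 and 74.1 CPM (-0.29 ± 0.09, adjusted p = 0.20). KIF3C had 20.8 and 19.0 against 14.9 and 16.3 CPM (-0.35 ± 0.15, adjusted p = 0.33).

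LBP in irradiated cells moved 4.36% of all features past the threshold but 0 of the 35 kinesins, of which 8 had an unadjusted p under 0.05, against 3205 of 14799 features, and DESeq2 called 0. Simple and mucosal epithelial markers summed to 5894 to 6720 CPM in irradiated vehicle and 5136 to 5819 CPM in irradiated LBP libraries, and their part in these values was not tested. The mitotic class had a median of -0.03, with 8 negative and 5 positive values. KIF18A had 24.98, 24.9 and 19.2 CPM in irradiated vehicle and 22.2, 22.5 and 24.0 CPM in irradiated LBP cells, a difference of -0.0041 ± 0.10 with an interval from -0.23 to 0.22. KIF23 stood at -0.03 ± 0.07 and KIF4A at -0.03 ± 0.06. The nearest to the threshold was the transport kinesin KIF13B, which carries vesicles and membrane proteins. It had 22.6, 22.9 and 24.2 against 27.9, 27.6 and 28.3 CPM, with no overlap between groups (0.27 ± 0.09, adjusted p = 0.097). KIF3B had 143, 150 and 145 against 175, 171 and 151 CPM (0.18 ± 0.07, adjusted p = 0.16). Without irradiated vehicle replicate 3, which had the lowest KIF20B level of its group, 1 kinesin was called, KIF20B. Of the tubulins TUBD1, encoding the centriolar delta-tubulin, fell from 8.40, 7.66 and 7.36 to 5.30, 5.52 and 5.26 CPM, a change of -0.54 ± 0.10 (adjusted p = 0.013), a call lost without irradiated vehicle replicate 1 (adjusted p = 0.071) and in all 3 settings on FPKM values.

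**Figure D4:**
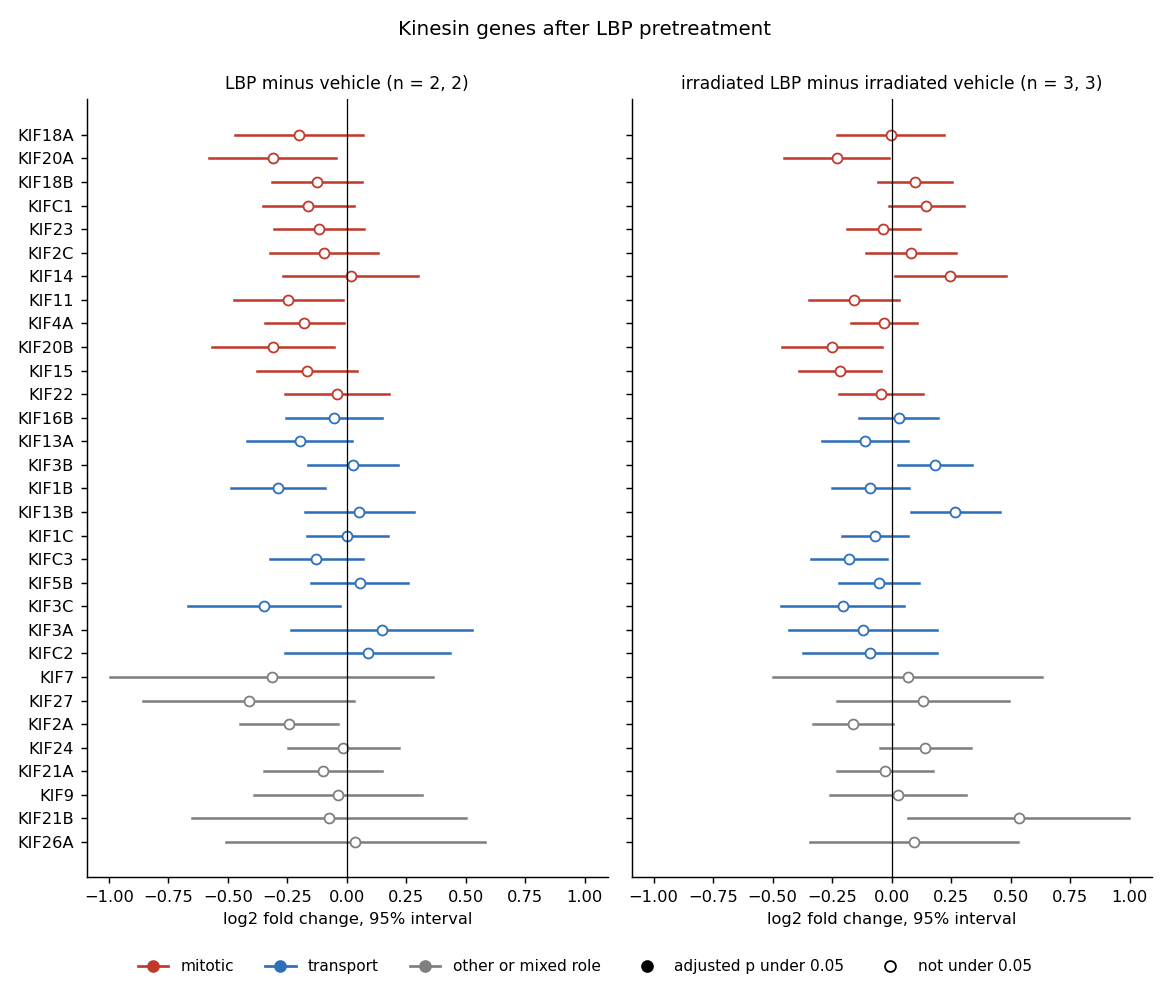
Log2 fold changes with 95% intervals for LBP against vehicle in unirradiated (left) and irradiated (right) cells, for the 31 tested kinesins with a mean of at least 1 CPM. All points are open because 0 kinesins had an adjusted p under 0.05, and KIF13B and KIF21B lie farthest to the right in irradiated cells.

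Within each library the classes were set against each other. The mean log2 CPM of the 13 mitotic minus that of the 12 transport kinesins was 0.82 and 0.89 in vehicle libraries and 0.76 and 0.77 in LBP libraries. After 12 Gy it was 0.35, 0.35 and 0.25 in irradiated vehicle and 0.23, 0.39 and 0.41 in irradiated LBP libraries. All 6 irradiated libraries thus lay below all 4 unirradiated ones, with group means of 0.85 ± 0.054 (SD, n = 2), 0.76 ± 0.0035 (n = 2), 0.32 ± 0.061 (n = 3) and 0.34 ± 0.10 (n = 3). The summed level of mitotic kinesins was 1295 ± 4.9 CPM in vehicle and 881 ± 11 in irradiated vehicle cells. It was 1158 ± 17 CPM in LBP and 854 ± 21 in irradiated LBP cells. The sum of transport kinesins was 1054 ± 64 CPM in vehicle and 1050 ± 7.3 in irradiated vehicle cells. In LBP and irradiated LBP cells it was 1028 ± 32 and 1025 ± 30 CPM. Mitotic kinesins made up 50.7% and 52.7% of all kinesin CPM in vehicle libraries, 48.9% and 50.6% in LBP libraries, 42.6%, 42.3% and 42.1% in irradiated vehicle and 40.8%, 43.2% and 42.6% in irradiated LBP libraries. These class values are given without a test, since the classes were drawn up with earlier results of these data known.

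**Figure D5:**
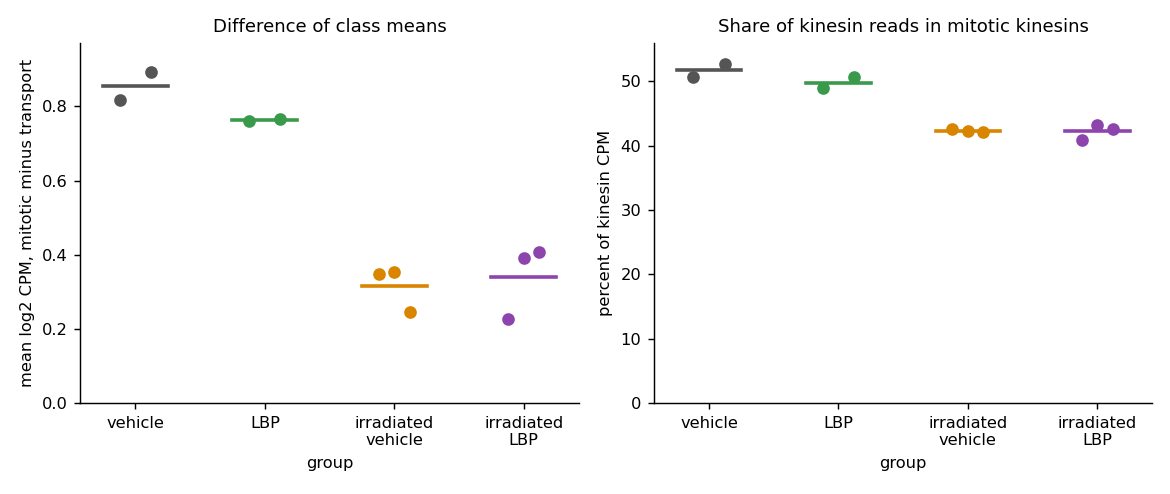
For each library (points) and group mean (bars), the mean log2 CPM of mitotic minus transport kinesins (left) and the percent of all kinesin CPM in mitotic kinesins (right). Irradiated libraries lie between 0.23 and 0.41 on the left axis and unirradiated ones between 0.76 and 0.89.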

How the data were processed

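RNA sequencing values were read from 2 tables the authors deposited: whole-number counts per gene, and FPKM, which are the same genes scaled by length and library size. The submitters' processing notes name HISAT2 and GRCh38; which program counted the reads, with which gene models and whether by strand, is not given in the sources used here. Of counts from 1 to 10, 59.7% were even. Groups came from the labels. Features were kept by filterByExpr (minimum count 10), scaled by TMM and tested with edgeR 4.0.16 in R 4.3.3 (glmQLFit and glmQLFTest, 1 mean per group, all 10 libraries, 6 residual degrees of freedom). Adjustment over 14799 features followed Benjamini and Hochberg, with a threshold of 0.05. Intervals are 95% intervals of the quasi-likelihood fit. Replicates differed by more than counting noise (chi-square per degree of freedom 10.1 to 34.5), with a fitted coefficient of variation of 11.5%. Log2 CPM for class means used a prior count of 2.

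Members and lists were chosen with earlier results of these data known. Named were all tested mitotic kinesins, transport kinesins with a mean of at least 5 CPM, any other kinesin that was called and CENPE. Up to 4 called members of each partner list were also named. KIF21B, KIF7, KIF2A, KIF21A, KIF24, STARD9 and, after LBP, CDCA8 were named after their values were seen. Promoter motifs were chosen after the tests. Promoter windows are RefSeq's, gene overlaps GENCODE v29. Alternatives were DESeq2 1.42.0, RLE scaling, no low-count filter, a replicate block, only the groups compared, and leaving out each library. Others used limma 3.58.1 on log2(FPKM + 0.1), with and without a filter of 0.5 FPKM in 2 libraries. Limma on log2(FPKM + 1) was run with that filter only. For the class means, KIF2A was also counted as mitotic and KIF21A and KIF21B as transport. Mean log2(FPKM + 0.1) was a further alternative there. The code was tested on simulated data.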

Additional observations from a re-analysis of the deposited data

How the results depend on the processing

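For irradiation without LBP, 12 mitotic kinesins kept their direction in all 18 alternatives, and KIF4B did in the 16 that gave it a value. The count of kinesins called was 7 in the test reported, 9 with DESeq2 and 9 with only the groups compared (both adding KIF11 and KIF14), 4 with limma on unfiltered FPKM values and 4 to 8 when each library was left out. After LBP it was 3, and 6 with DESeq2, 6 without the low-count filter, 0 with limma on unfiltered FPKM values, 1 with only the groups compared and 0 to 3 when each library was left out. It was 0 in all alternatives for LBP without irradiation and for the interaction, and 0 to 1 when each library was left out for LBP with irradiation. The cause was not tested. KIF4B, at a mean of 0.453 CPM, changed sign after LBP, from -0.38 to 0.16 without LBP replicate 1, and was -0.79 without LBP replicate 2. Among kinesins that were not called, signs were less steady: 5 and 6 of the 12 transport kinesins took the opposite sign in at least 1 alternative for irradiation without and after LBP. The difference between class means changed with irradiation by -0.54 without LBP and by -0.42 after LBP. When each library was left out, this change ran from -0.58 to -0.50 without LBP and from -0.45 to -0.36 after LBP. Counting KIF2A as mitotic and KIF21A and KIF21B as transport, or using mean log2(FPKM + 0.1), gave -0.55 to -0.51 without LBP. After LBP these settings gave -0.44 to -0.43. The shifts of this change from the main values were smaller than the spread between libraries. Of 13 pairs of libraries with the same replicate number 2 correlated above 0.1 (r from -0.16 to 0.11), and 3 of 10 libraries correlated best with their own number. Values were centred within groups of 2 or 3 libraries, so these correlations are not independent. They cannot tell whether a shared number marks a shared culture or run. With a replicate block 6 kinesins were called without LBP, where KIF4A was lost (adjusted p = 0.066). After LBP 5 were called: KIF20A (adjusted p = 0.034), KIF2C (0.019) and KIFC1 (0.042) were gained and KIF18B (0.061) was lost. Features called ran from 25 to 123 without LBP and from 8 to 193 after LBP over the alternatives. The number of libraries per group, 2 or 3, limits the precision. Intervals for well measured transport kinesins reached from -0.34 to 0.56 for irradiation without LBP and from -0.46 to 0.52 after LBP. For LBP they reached from -0.67 to 0.53 without and from -0.46 to 0.45 with irradiation. For the interaction they reached from -0.76 to 0.55.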
